A study of Mus musculus with 4 samples.

Results

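Galectins, S100 proteins and annexins are small soluble proteins that act at membranes, and 10 of their genes are described here across the cell classes of mouse glomeruli from young and aged animals. The genes are Lgals1, Lgals3 and Lgals9 (galectins), S100a4, S100a6, S100a10 and S100a11 (S100 proteins), and Anxa1, Anxa2 and Anxa5 (annexins). They were taken by symbol, 10 of the 52636 genes counted and 10 of the 44 whose symbol begins with Lgals, S100 or Anxa. The members were chosen by their measured difference between young and aged libraries, so the differences with age of these 10 are given as a description and support nothing. The level of a gene in one cell class against another is tested. The family genes that were not chosen are those the same choice left over, so their differences with age are a description as well.

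Galectins bind galactose-containing sugars on glycoproteins and are secreted without a signal peptide. S100 proteins are calcium-binding dimers, and S100A10 differs from the rest in that it no longer binds calcium and forms a complex with annexin A2 at the inner face of the plasma membrane. Annexins bind acidic phospholipids when calcium rises, and annexin A1 is also released and acts on formyl peptide receptors. In the kidney, galectin-3 is known from macrophages, from tubule and collecting duct cells and from fibrosis, and S100A4 and S100A6 are known from activated and migrating cells.

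Kidneys were perfused with magnetic beads, glomeruli were pulled out with a magnet and dissociated with enzymes, and single cells were profiled with a droplet assay that counts 3' ends of transcripts as unique molecular identifiers (UMIs). There were 2 libraries from young and 2 from aged untreated mice. The labels give neither the age in months, nor strain, nor sex, nor how many mice a library holds, so differences between the libraries of a group may be technical. All 4 libraries passed through the same isolation, which selects glomeruli that hold beads.

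The deposited matrices held 5532 and 9649 barcodes in young libraries 1 and 2 and 10621 and 7521 in aged libraries 1 and 2, against about 8000 cells aimed at in each, with 18457791 to 42046542 UMIs a library. After filters on cells and predicted doublets 28000 cells were kept. Between 5 and 21 barcodes were shared by any pair of libraries, at most 0.338% of the smaller one. Clusters were built without the 44 family genes and named from marker genes, and 17 of 21 clusters received a name. Young library 2 stood apart: its median was 1258 UMIs a cell against 2715 to 3730 in the others, and 4164 of its 6976 cells fell into clusters holding markers of unrelated classes, against 77 to 134 cells in each of the others. Those clusters were left out. The 4 glomerular classes then held 588 to 1776 podocytes, 1440 to 6031 endothelial cells, 206 to 707 mesangial cells and 33 to 64 parietal epithelial cells a library. Macrophages were 3 and 8 cells in young and 543 and 485 in aged libraries, and neutrophils 0 and 4 against 48 and 13.

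Levels below are CPM, that is UMIs of the gene for every 1000000 UMIs of the class in a library, without further scaling unless stated. Differences with age are log2 of aged over young from edgeR's quasi-likelihood fit to the summed counts of each class, given with their standard error (SE), n = 2 against 2 libraries. A gene is said to have passed where the Benjamini-Hochberg adjusted p over all genes tested in that class was under 0.05. By that rule 3 of 10 members passed in podocytes, all higher in aged, beside 3.88% of all 10891 genes tested in that direction and 1.96% in the other. In endothelial cells 3 of 10 passed, all higher, beside 3.90% of 13174 genes, with 2.09% lower. Mesangial cells had 2 higher and 1 lower of 10, beside 4.95% and 3.09% of 10983 genes. Parietal epithelial cells had 5 higher of the 8 members with enough counts, beside 2.02% of 4498 genes, and Lgals9 and S100a4 were not tested there. On CPM scaled by TMM size factors, unlike the levels below, young and aged libraries did not overlap for 5, 7, 6 and 6 members. The order of classes is the same, and on that scale 45.9%, 48.9%, 53.2% and 49.5% of all genes tested did not overlap. Since age differences chose the members, nothing is read from these counts.

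**Figure D1:**
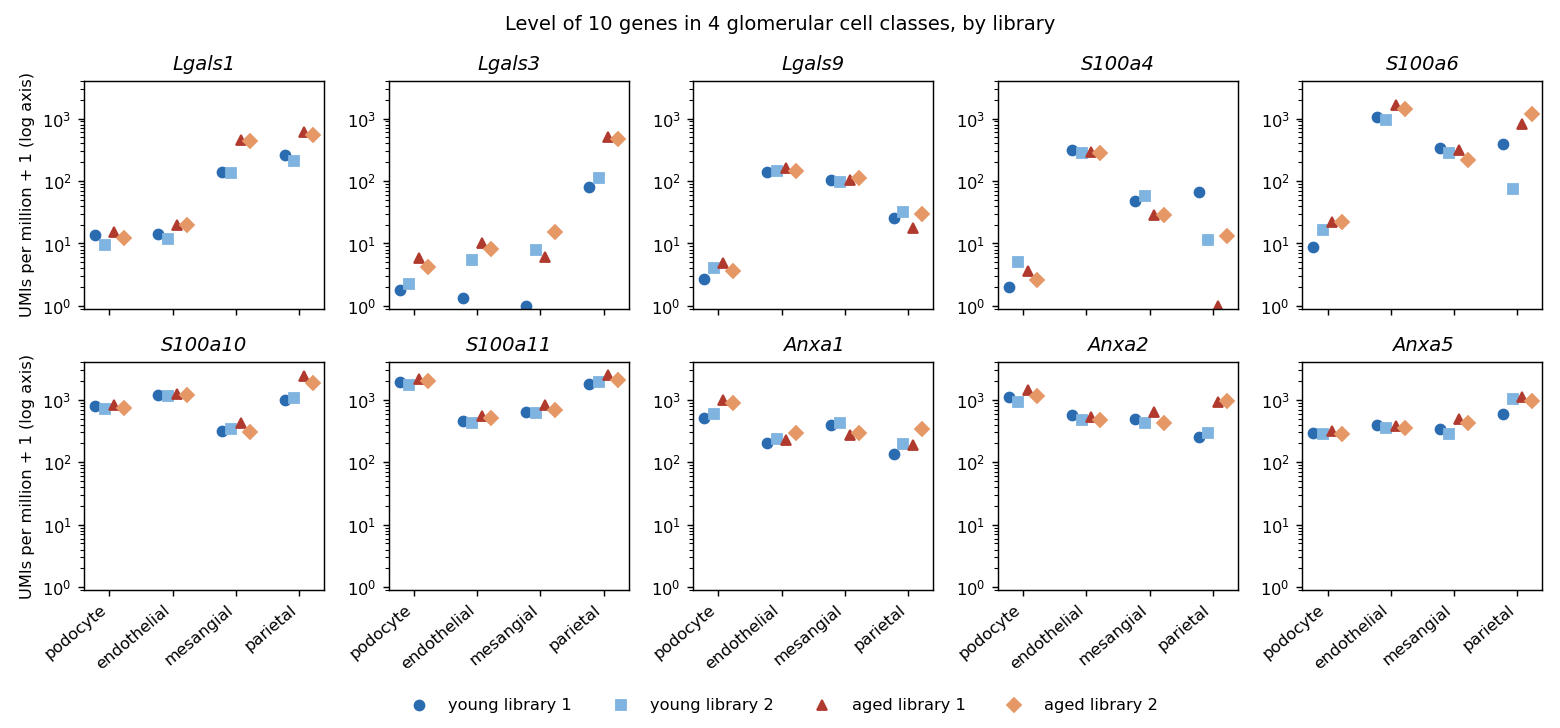
CPM plus 1 (log axis) of each of the 10 genes in 4 glomerular cell classes, 1 point a library, young in blue and aged in red. Lgals3 lies between 78.7 and 497.7 in parietal epithelial cells and at most 14.2 in the other classes, and Lgals1 in mesangial cells moves from 132.5 and 138.9 in the young to 430.7 and 461.5 in aged libraries.

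Across classes, levels were compared in one fit over the 16 sums with library as a block, and a class was said to lead a gene where it lay above each of the other 3 classes with an adjusted p under 0.05. Such a class existed for 7 of the 10 members. The share of all genes with a leading class was not computed, so nothing is read from that count. Parietal epithelial cells led Lgals3 and Anxa5, endothelial cells led Lgals9, S100a4 and S100a6, and podocytes led Anxa1 and Anxa2. Lgals1, S100a10 and S100a11 each had 2 classes at the top that the test did not separate. These comparisons stand beside a background in which, of all 14137 genes, 73.5% differed between podocytes and endothelial cells, 70.5% between podocytes and mesangial cells, 40.9% between podocytes and parietal epithelial cells, 54.7% between endothelial and mesangial cells, 43.1% between endothelial and parietal epithelial cells and 37.8% between mesangial and parietal epithelial cells. With the mixed clusters kept, 4 members had a leading class.

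Lgals1 encodes galectin-1, a secreted lectin of stromal and smooth muscle cells. Its level was 138.9 and 132.5 CPM in mesangial cells of young libraries and 461.5 and 430.7 in aged ones. Its parietal epithelial level was 260.2 and 208.2 in young and 599.2 and 542.1 in aged libraries. The groups do not overlap in either class. The differences were 1.83 (SE 0.162) and 1.30 (SE 0.201) on the log2 scale, and both passed.

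Mesangial and parietal epithelial cells did not separate in their Lgals1 level over all libraries (mesangial minus parietal -0.21 on the log2 scale, SE 0.196; edgeR adjusted p = 0.448). That fit used TMM size factors, and on its scale the means were 318 CPM in mesangial and 347 in parietal epithelial cells. The unscaled levels above were higher in parietal epithelial than in mesangial cells of each library. Podocytes lay far below mesangial cells (podocyte minus mesangial -4.50 on the log2 scale, SE 0.218), as did endothelial cells (-4.16, SE 0.205), with adjusted p of 4.1e-14 and 1.1e-13 by edgeR. Endothelial Lgals1 was 13.0 and 10.7 CPM in young and 19.1 and 18.9 in aged libraries, which passed at 0.78 (SE 0.19). Podocytes held 8.31 and 12.4 in young and 11.1 and 14.5 in aged libraries, which overlap and did not pass. The endothelial call was lost with DESeq2 (0.79), with no filter on low counts (0.81), without young library 1 (1.02) and without young library 2 (0.62). Without the Fbln2-high cluster described below, endothelial cells held 6.96 and 7.22 against 16.8 and 15.5 CPM, a difference of 1.30 that passed. Both the podocyte and the endothelial range overlap that of B cells, which held 10.8 to 76.7 CPM. Beside the endothelial difference, the summed mesangial markers in endothelial cells were at 0.369% and 0.766% of their mesangial level in young and 1.05% and 1.17% in aged libraries, and Lgals1 at 3.48% and 2.85% against 5.10% and 5.05%. The part of mesangial RNA in that difference was not tested.

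After every cell was thinned to 1000 UMIs, 10.7% and 15.4% of mesangial cells of young libraries and 39.2% and 35.7% of aged ones held an Lgals1 UMI. Without thinning the shares were 43.8% and 41.3% against 77.9% and 83.4%. B cells, at a median of 1200 to 1727 UMIs against 3534 to 7091 in mesangial cells, held one in 0% to 5.08% of thinned cells. Among markers of other classes, those of parietal epithelial cells moved in the same direction in mesangial cells, from 7.69% and 8.99% to 17.5% and 21.8% of their parietal level, while podocyte markers stood at 1.37% and 1.60% in young and 1.11% and 1.04% in aged libraries. Their part in the Lgals1 difference was not tested. The mesangial call was lost without young library 1 (1.88) and kept without any other library. The parietal epithelial call was lost without young library 2 (1.14). Markers of smooth muscle and renin cells, which themselves held 747.8 to 1573 CPM of Lgals1, stood in parietal epithelial cells at 0.482% and 0.698% of their own level in young and 1.26% and 2.57% in aged libraries, beside Lgals1 at 23.0% and 18.4% against 53.0% and 47.9%. Their part in the parietal difference was not tested.

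Lgals3 encodes galectin-3, a lectin that forms multimers and is abundant in macrophages. Its parietal epithelial level was 78.7 and 109.3 CPM in young libraries, from 13 and 21 UMIs, and 497.7 and 464.4 in aged ones, from 152 and 263 UMIs. The groups do not overlap, and the difference of 2.35 (SE 0.235) passed. Parietal epithelial cells led this gene, with the other classes at -5.20 to -6.43 on the log2 scale against them. The nearest were mesangial cells (mesangial minus parietal -5.20, SE 0.313; adjusted p = 1.3e-11 by edgeR). In the other classes the counts were small. Endothelial cells held 2 and 18 UMIs in young libraries and 150 and 116 in aged ones, or 0.314 and 4.47 against 9.28 and 7.11 CPM. Podocytes held 6 and 4 UMIs against 28 and 16, and mesangial cells 0 and 8 against 26 and 84. Endothelial and podocyte differences passed, at 2.16 (SE 0.472) and 2.19 (SE 0.51). The mesangial groups overlap and did not pass. B cells of the 4 libraries held 14.1 to 32.5 CPM, above every podocyte and endothelial value.

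The macrophage level of Lgals3 was 4359 CPM over all libraries, and 7 macrophage markers were followed beside it. In endothelial cells 6 of 7 had a UMI in young and 7 of 7 in aged libraries, and their summed level was 0.157 to 3.97 against 12.4 to 15.8 CPM. Podocytes had 2 of 7 in young and 6 of 7 in aged libraries, at 2.69 to 3.69 against 9.36 to 12.3. Mesangial cells had 2 and 5 of 7, at 0 to 5.98 against 7.25 to 17.5. Parietal epithelial cells had 1 of 7 in young and 3 of 7 in aged libraries, at 60.5 to 67.7 against 53.0 to 75.3, and C1qa, C1qb, Fcgr1 and Ms4a7 were at 0 in all 4 libraries. Csf1r gave all marker UMIs of the first 3 libraries there (10, 13 and 23) and 27 of 30 in aged library 2.

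Macrophage RNA at the share given by those markers, with neutrophil RNA at the share given by its own, would amount to 108% and 82.2% of the Lgals3 UMIs of young podocytes, 51.1% and 103% of those of aged podocytes, 37.3% and 62.7% of those of aged endothelial cells and 49.1% and 33.6% of those of aged mesangial cells. In parietal epithelial cells the same sum came to 20.5% and 16.5% in young and 4.09% and 3.14% in aged libraries. Endothelial macrophage markers were at 0.000962% and 0.0243% of their macrophage level in young and 0.0757% and 0.0967% in aged libraries. Endothelial Lgals3 was at 0.00721% and 0.103% of its macrophage level in young and 0.213% and 0.163% in aged libraries. In mesangial cells of young libraries the markers were at 0% and 0.0366%, and Lgals3 at 0% and 0.157%. In podocytes Csf1r gave 21 of 21 and 11 of 12 macrophage marker UMIs in young and 27 of 53 and 29 of 61 in aged libraries, and the C1q genes were at 0 in both young ones. With that profile subtracted, the parietal difference was 2.58 and passed, the endothelial one was 1.71 and did not, and podocyte counts were too low to test. The ratio to the 3 C1q genes was compared as well. Aged macrophages held 0.318 and 0.274 Lgals3 UMIs for each C1q UMI. Endothelial cells held 0.82 and 0.52, podocytes 1.22 and 0.593 and mesangial cells 0.897 and 0.966. Parietal epithelial cells held 152 Lgals3 UMIs beside 0 of C1q in aged library 1 and 263 beside 2 in aged library 2. Monocytes and dendritic cells carry 2256 to 4391 Lgals3 CPM with little C1q, and their RNA was not part of the profile subtracted. The part of leukocyte RNA in the Lgals3 differences was not tested.

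**Figure D2:**
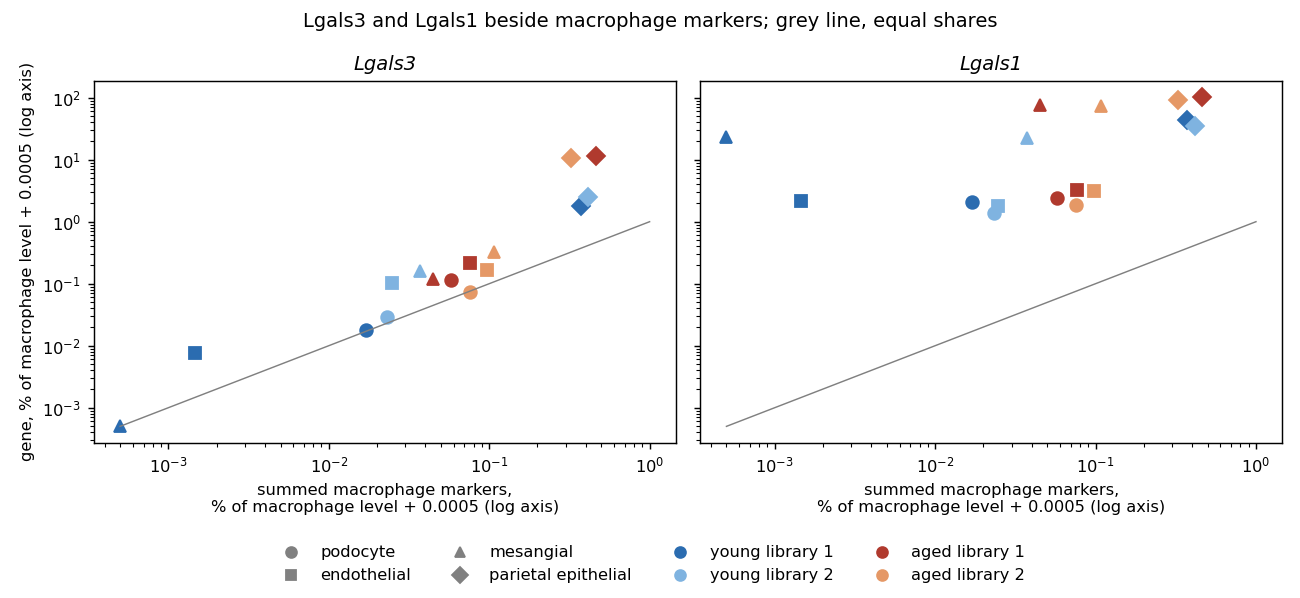
Level of Lgals3 (left) and Lgals1 (right) as percent of its macrophage level against the summed macrophage markers as percent of theirs (both log axes, with 0.0005 added so that zeros show); shape gives the cell class and colour the library, and the grey line marks equal shares. Podocyte Lgals3 lies on or near the line, at 0.0741% and 0.113% in aged libraries, while parietal epithelial Lgals3 lies far above it, at 10.7% and 11.4%.

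Tubule cells, which also hold Lgals3 (368.6 to 2087 CPM), were followed in the parietal epithelial class as well. Tubule markers there were at 1.39% and 3.06% of their tubule level in young and 2.23% and 2.32% in aged libraries. Lgals3 was at 4.34% and 6.03% against 27.5% and 25.6% of its tubule level. After thinning, 9.09% of parietal cells in each young library and 16% and 25% in aged libraries held an Lgals3 UMI, and 18.2% and 15.6% against 48.0% and 45.3% without thinning. Thinned B cells held one in 0% to 6%. Without young library 2 the parietal difference was 2.61 and did not pass, as no gene did in that fit. The endothelial call was lost without young library 1 (1.05), without young library 2 (4.73), with DESeq2 (1.97) and with no filter on low counts (2.19). The podocyte call was lost without young library 1 (1.81), without aged library 1 (1.84), with DESeq2 (2.16) and with mixed clusters kept (-2.56).

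Lgals9 encodes galectin-9, a tandem-repeat lectin that binds the immune receptor TIM-3. It was 138.0 and 143.8 CPM in endothelial cells of young and 158.8 and 145.6 of aged libraries, and 94.9 to 109.9 in mesangial cells. Endothelial cells led, by 0.51 (SE 0.108) over mesangial cells (adjusted p = 0.00036 by edgeR). Podocytes held 1.67 to 3.89 CPM. No class passed with age, the endothelial difference being 0.24 (SE 0.137).

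S100a4 encodes a calcium sensor, also called fibroblast-specific protein, that binds non-muscle myosin. Endothelial cells led it, by 3.0 (SE 0.217) over mesangial cells on the log2 scale (adjusted p = 7.9e-11 by edgeR). Over the whole endothelial class the level was 310.2 and 280.3 CPM in young and 290.1 and 277.3 in aged libraries. These overlap, and the difference of 0.06 (SE 0.15) did not pass. The class is uneven in this gene. In the endothelial cluster with the highest Fbln2 level, led by Tspan8, Thbs2 and Fbln2, S100a4 stood at 1532 and 1149 in young and 1562 and 1268 in aged libraries. The largest cluster (c1), led by Sele, Selp and Plaur, held 33.5 and 35.5 against 95.1 and 89.3. The next (c2), led by Ier5l, Gata5 and Rflna, held 55.9 and 48.9 against 105.3 and 109.9. In c5, led by Esm1 and Igfbp3, it was 337.2 and 160.2 against 468.0 and 434.8.

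That Fbln2-high cluster made up 12.2% and 20.8% of endothelial cells in young libraries and 10.4% in each aged one. Without it, S100a4 was at 70.3 and 50.8 CPM in young and 149.6 and 140.8 in aged libraries, which do not overlap. The difference was 1.35 (SE 0.168) and passed, beside 768 of 12709 genes. This alternative was chosen after the cluster values were seen. In the cluster led by Ddit4l (c12), S100a4 ran the other way, from 157.2 and 138.7 in the young to 111.1 and 115.0 in aged libraries. Mesangial cells held 46.5 and 56.4 in young and 27.4 and 27.3 in aged libraries, a lower level that passed at -0.78 (SE 0.194). That call was lost without young library 1 (-0.92), without young library 2 (-0.65), without cells that held a leukocyte marker UMI (-0.67), with DESeq2 (-0.77), with doublets kept (-0.67) and with mixed clusters kept (-0.39), and passed in 7 of 13 alternatives. Parietal epithelial cells held 11 and 2 UMIs in young and 0 and 7 in aged libraries.

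**Figure D3:**
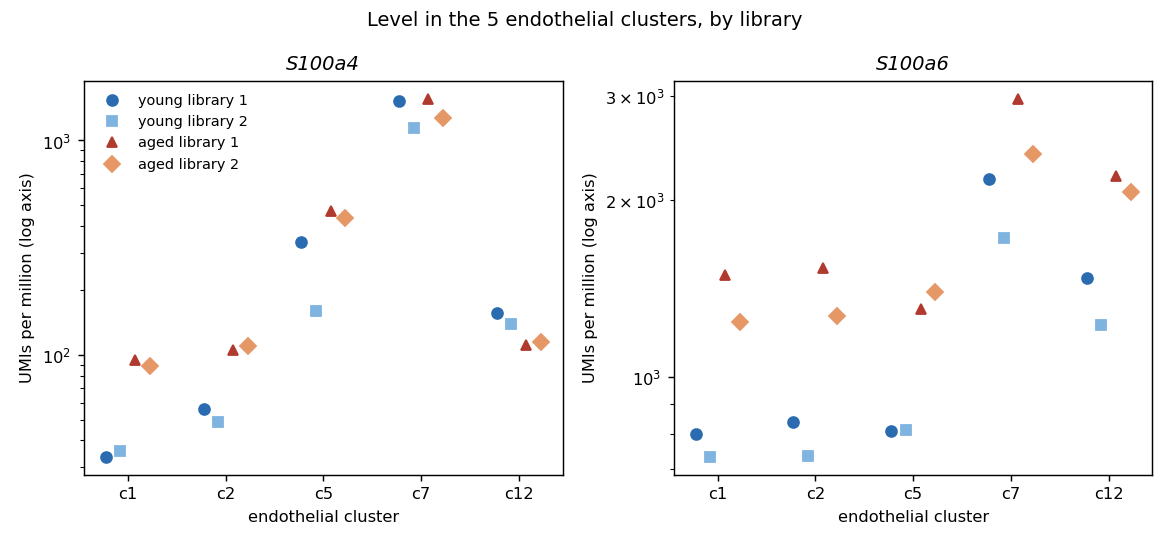
CPM (log axis) of S100a4 and S100a6 in each of the 5 endothelial clusters, 1 point a library. S100a4 spans 33.5 to 1562 between clusters and is higher in both aged libraries in c1, c2 and c5 but lower in c12, and S100a6 is higher in both aged libraries in all 5.

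S100a6 encodes calcyclin, which is induced when quiescent cells are stimulated. Endothelial cells led it, by 1.41 (SE 0.336) over parietal epithelial cells (adjusted p = 0.00156 by edgeR). Their level was 1061 and 954.9 CPM in young and 1643 and 1425 in aged libraries. The groups do not overlap, and the difference of 0.73 (SE 0.173) passed. Both aged libraries were above both young ones in each of the 5 endothelial clusters, as in c1, where the level was 802.5 and 732.8 against 1492 and 1241. Thinned to 1000 UMIs, 55.1% and 53.3% of endothelial cells of young and 71.5% and 67.5% of aged libraries held a UMI, against 1.94% to 10.0% of B cells. Without thinning these endothelial shares were 75.6% and 74.8% against 88.7% and 91.2%.

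Parietal epithelial S100a6 was 393.3 and 72.9 in young and 828.4 and 1181 in aged libraries. That difference of 2.18 (SE 0.415) passed although young library 1 lay far above young library 2. Podocytes held 7.70 and 15.7 against 20.7 and 21.4, which passed at 1.04 (SE 0.236). The podocyte values lie below or at the low end of those of B cells (21.1 to 151.7) and at 0.546% to 1.52% of the endothelial level, where endothelial markers stood at 0.32% and 0.972% in young and 0.665% and 0.467% in aged libraries. The part of endothelial RNA in that difference was not tested. Mesangial cells had 338.5 and 283.8 against 314.3 and 215.3, which overlap. Neutrophils hold 9070 CPM, and their 6 markers stood at 0 to 0.045% of their own level in all glomerular sums. S100a8 and S100a9, the paired S100 genes that mark neutrophils, were at 53285 and 79501 CPM there and at most 15.5 and 21.4 in any glomerular class of a library. The endothelial call was lost without young library 1 (0.87), without young library 2 (0.61), without aged library 1 (0.62) and with no filter on low counts (0.76). The podocyte call was lost without young library 1 (0.51), with DESeq2 (0.97) and with mixed clusters kept (-2.20). The parietal call was lost without young library 2 (1.38) and with DESeq2 (2.11), and the difference was 3.86 without young library 1. Beside it, smooth muscle and renin markers in parietal cells went from 0.482% and 0.698% to 1.26% and 2.57% of their own level, and S100a6 from 48.0% and 8.88% to 101% and 144% of its level in that class. Their part was not tested.

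S100a10 encodes p11, the partner of annexin A2. Endothelial and parietal epithelial cells did not separate at the top over all libraries (endothelial minus parietal -0.04 on the log2 scale, SE 0.166; edgeR adjusted p = 0.875). That average spans both ages: the endothelial mean was 1170 CPM in young and 1217 in aged libraries, and the parietal mean 1022 and 2124. Within parietal epithelial cells the level was 992.4 and 1051 CPM in young and 2374 and 1875 in aged libraries, a difference of 1.07 (SE 0.158) that passed. Neither the podocyte (724.5 to 826.1), the endothelial (1144 to 1257) nor the mesangial difference (305.3 to 419.4 over all 4 libraries) passed. S100a11, a calcium sensor of epithelia, was at 1923 and 1738 in podocytes of young and 2150 and 1998 of aged libraries, and at 1779 and 1962 against 2495 and 2070 in parietal epithelial cells. The pair of classes did not separate (podocyte minus parietal 0.25, SE 0.103; adjusted p = 0.0622 by edgeR). S100a11 was higher in both aged libraries in all 4 classes, by 0.23 to 0.41, and passed in none of them.

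Anxa1 encodes annexin A1, a mediator of glucocorticoid action that limits neutrophil entry. Podocytes led it, by 1.07 (SE 0.192) over mesangial cells (adjusted p = 3.9e-05 by edgeR). Their level was 505.4 and 595.2 CPM in young and 980.7 and 901.0 in aged libraries, with no overlap, and the difference of 0.83 (SE 0.139) passed. It passed in 12 of 13 alternatives, at 0.75 to 0.92, the exception being the fit with mixed clusters kept, in which 9 genes passed in all. Thinned to 1000 UMIs, 34.3% and 38.8% of podocytes of young and 50.3% and 50.1% of aged libraries held a UMI, against 0% to 3.39% of B cells, whose median was 1200 to 1727 UMIs against 4191 to 7678. Without thinning the podocyte shares were 71.6% and 77.6% against 87.3% and 88.8%. Macrophages hold 55.6 CPM of this gene, under every podocyte value, and neutrophils 521, above young library 1 and under the others. In mesangial cells it went the other way, from 387.9 and 421.4 to 270.8 and 296.0, at -0.40 (SE 0.152), which did not pass.

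Anxa2 encodes annexin A2, which with S100A10 anchors plasminogen and its activator at the cell surface. Podocytes led it, by 1.14 (SE 0.216) over endothelial cells (adjusted p = 6.7e-05 by edgeR), with 1104 and 916.9 CPM in young and 1412 and 1145 in aged libraries. Podocytes did not pass with age at 0.39 (SE 0.151). Parietal epithelial cells held 254.1 and 296.7 in young and 916.8 and 941.1 in aged libraries. The difference of 1.77 (SE 0.181) passed. Thinned shares of parietal cells with a UMI were 12.1% and 38.6% against 50% and 54.7%, and 63.6% and 54.7% against 88.0% and 89.1% without thinning. Of the 64 parietal cells of young library 2, 20 had fewer than 1000 UMIs and were left out of the thinned share. Endothelial levels were 466.4 to 569.1 and mesangial ones 419.7 to 630.4 over all libraries, with groups that overlap. Without young library 2 the parietal differences of Anxa2 (1.88) and S100a10 (1.1) did not pass, and that of S100a10 did not pass without young library 1 either (1.07).

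Anxa5 encodes annexin A5, a protein that covers exposed phosphatidylserine. Parietal epithelial cells led it, by 0.92 (SE 0.149) over mesangial cells (mesangial minus parietal -0.92, adjusted p = 3.2e-05 by edgeR), with 593.0 and 1031 CPM in young and 1090 and 955.3 in aged libraries, which overlap. Mesangial cells held 341.9 and 287.2 against 491.5 and 426.1, a difference of 0.66 (SE 0.166) that passed. It was lost without young library 1 (0.80) and without young library 2 (0.54). Podocytes (280.5 to 319.4) and endothelial cells (356.0 to 393.3) did not pass.

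**Figure D4:**
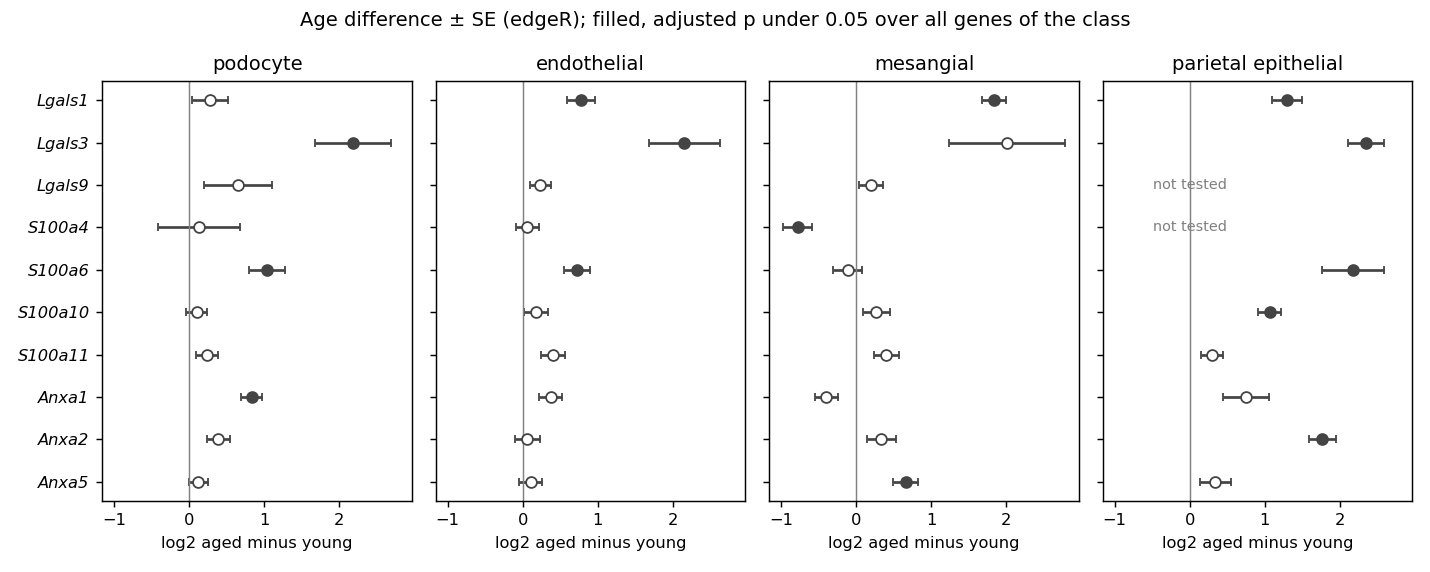
Difference with age (log2 aged minus young, with its SE) of each member in each glomerular class; filled points have an adjusted p under 0.05 over all genes of that class. Parietal epithelial cells hold 5 filled points from 1.07 to 2.35, and mesangial cells show Lgals1 at 1.83 and S100a4 at -0.78.

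Parietal epithelial cells held higher S100a10 and Anxa2 together with Lgals1, Lgals3 and S100a6 in aged libraries, from 33 and 64 cells against 50 and 64. Of these 5 genes 3 had an entry in the RefSeq promoter table (GRCm38.p6), and the 200 bases before their start are shown because these members moved together. The RefSeq start lies 63, 12 and 6109 bases inside the GENCODE start for Anxa2, S100a6 and Lgals3, so the Lgals3 window sits within the gene span given further on. Capitals mark matches, on either strand, to TGANTCA (AP-1), GGGCGG (the GC box), TATAAA (the TATA box), TTCNNNGAA (STAT factors) or ACANNNTGT (the glucocorticoid receptor).
Anxa2, chr9:69453483-69453682, plus strand: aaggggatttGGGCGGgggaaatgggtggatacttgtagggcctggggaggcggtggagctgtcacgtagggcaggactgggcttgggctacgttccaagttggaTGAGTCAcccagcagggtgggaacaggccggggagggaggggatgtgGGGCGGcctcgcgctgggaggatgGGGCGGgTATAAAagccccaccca
S100a6, chr3:90612694-90612893, plus strand: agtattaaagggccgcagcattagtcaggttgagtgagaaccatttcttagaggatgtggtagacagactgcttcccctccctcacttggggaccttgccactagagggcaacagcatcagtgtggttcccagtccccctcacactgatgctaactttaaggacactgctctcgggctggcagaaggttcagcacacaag
Lgals3, chr14:47373660-47373859, plus strand: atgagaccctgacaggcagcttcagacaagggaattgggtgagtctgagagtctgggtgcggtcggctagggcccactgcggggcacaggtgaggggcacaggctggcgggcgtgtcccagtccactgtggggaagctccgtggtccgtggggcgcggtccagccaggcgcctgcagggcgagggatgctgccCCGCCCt
The Anxa2 window holds 1 AP-1 match, 3 GC boxes and 1 TATA box, the Lgals3 window 1 GC box, and the S100a6 window none of the 5 motifs. Among all 32851 promoter windows of that length, 5.48% hold the AP-1 letters, 31.0% the GC box, 9.96% the TATA box, 5.49% the STAT letters and 4.51% the receptor letters. The 3 promoters share no match to a single one of these motifs.

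By position in GRCm38 (GENCODE vM21, protein-coding genes), S100a4 (90603771 to 90606045), S100a6 (90612882 to 90624181), S100a11 (93520488 to 93526287) and S100a10 (93555080 to 93564643) lie on chromosome 3, where 14 of the 15 S100a genes counted are found. Anxa5 is on the same chromosome (36448923 to 36475894). Lgals1 lies on chromosome 15 (78926725 to 78930465), Lgals3 on 14 (47367751 to 47386160), Lgals9 on 11 (78962974 to 78984946), Anxa1 on 19 (20373428 to 20390944) and Anxa2 on 9 (69453620 to 69491795). S100a4 overlaps the gene model Gm42674 on its own strand, Anxa1 overlaps the non-coding 1500015L24Rik and Anxa2 the antisense Gm16144 on the opposite strand. Whether counting used strand is not given in the sources used here, so reads of these pairs may not be told apart.

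Differences with age were set against each other between classes for 60 pairs of member and classes, in the fit over 16 sums. Of these 16 passed, beside, of all genes, 3.31% for podocytes against endothelial cells, 4.49% against mesangial and 1.37% against parietal epithelial cells, 2.67% for endothelial against mesangial cells, 0.955% for endothelial and 1.03% for mesangial against parietal epithelial cells. Anxa2 and S100a10 each differed between parietal epithelial cells and all 3 other classes, and Lgals1 between mesangial cells and both podocytes and endothelial cells. S100a6 passed in 4 pairs and Anxa1 in 3. Lgals3, Lgals9, S100a4, S100a11 and Anxa5 passed in none. These values reuse the age differences that chose the members and are a description. The count was 6 without young library 1, 11 without young library 2, 18 and 20 without the aged libraries, and 1 with the mixed clusters kept.

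Of the 34 family genes that were not chosen, 13, 17, 13 and 10 had enough counts in podocytes, endothelial, mesangial and parietal epithelial cells. Anxa3, an annexin of endothelial and epithelial cells, was higher in aged podocytes, at 546.4 and 498.3 CPM scaled by TMM in young and 745.9 and 780.9 in aged libraries (log2 0.55, SE 0.136; adjusted p = 0.0117 by edgeR). It was also higher in aged mesangial cells, at 45.4 and 42 against 82.9 and 75.5 TMM-scaled CPM (0.85, SE 0.176; adjusted p = 0.00679). Its parietal epithelial difference was 0.63 (SE 0.168; adjusted p = 0.0548), with both aged libraries above both young ones. Mesangial cells also showed Lgals3bp, a secreted galectin-binding glycoprotein, higher (0.61, SE 0.165; adjusted p = 0.0318) and Lgalsl, a galectin-like protein, lower (-0.78, SE 0.157; adjusted p = 0.00562). So 1 of 13 podocyte and 3 of 13 mesangial genes passed, beside 5.85% and 8.04% of all genes. Lgals3bp counts here by its symbol alone, and again among the partner genes below. In endothelial cells 0 of 17 and in parietal epithelial cells 0 of 10 passed, beside 5.99% and 3.73%. The choice of members by age difference left these genes over, so the counts are a description and support nothing. The 3 mesangial calls were lost without young library 1 (Anxa3 0.92, Lgals3bp 0.56, Lgalsl -0.68) and without young library 2 (0.80, 0.65 and -0.86 in that order). That of Anxa3 was also lost with doublets kept (0.53) and turned to -0.21 with mixed clusters kept, and that of Lgals3bp was lost with DESeq2 (0.62) and with mixed clusters kept (0.58). The podocyte call of Anxa3 was lost without aged library 1 (0.58), without aged library 2 (0.52) and with mixed clusters kept (0.56).

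Of 13 partner genes (receptors, ligands and binding proteins of these families), 7, 8, 8 and 5 were tested in the same order of classes. The list was drawn up with earlier results of these data known, so its values are a description and support nothing. Cacybp, the S100A6-binding protein, passed as higher in podocytes (0.80, SE 0.17; adjusted p = 0.00296 by edgeR) and endothelial cells (1.14, SE 0.234; adjusted p = 0.00532). Its aged libraries were far apart, at 192.5 and 401.1 TMM-scaled CPM in endothelial cells. Plat, tissue plasminogen activator, passed as higher in endothelial cells, from 3308 and 2602 to 6126 and 4271 TMM-scaled CPM (0.81, SE 0.209; adjusted p = 0.0244). The podocyte call of Cacybp was lost with DESeq2, without aged library 2 (0.36) and with mixed clusters kept. Its endothelial call was lost in 5 of 14 alternatives (0.52 without aged library 2, 1.28 and 1.03 without young libraries 1 and 2), as was that of Plat (0.54 without aged library 1, 1.00 and 0.65 without young libraries 1 and 2). In mesangial cells Lgals3bp was the only partner to pass. Cd44, a hyaluronan receptor and a marker of activated parietal cells, passed in parietal epithelial cells. It rested on 1 UMI in young and 42 in aged libraries, a ratio per UMI of 17.2 with an exact 95% interval of 2.93 to 696. The Cd44 call was lost with DESeq2 and without young library 1, and without young library 2 the young group held 0 UMIs. The median log2 difference of the tested partners was 0.20, 0.25, 0.27 and 0.50, beside 0.01, -0.01, -0.01 and 0.01 over all genes.

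A list of 10 genes induced by enzymatic dissociation (Fos, Fosb, Jun, Junb, Egr1, Atf3, Ier2, Hspa1a, Hspa1b and Dnajb1) was followed beside the members. The parietal epithelial class had 6 of 10 pass as lower in aged, with a median of -1.03, beside 1.71% of all genes in that direction. Mesangial cells had 3 pass as lower (median -0.23), beside 3.09%, and endothelial cells none (0.12), beside 5.99% in either direction. Podocytes had 4 pass as higher (0.02), beside 3.88%. The part of dissociation in the member differences was not tested.

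Genes whose log level followed a member most closely over the 16 sums, which share 4 libraries and 4 classes, were named by Pearson's r as a description. For Lgals1 they were Rnase4 (0.98), Plau (0.97) and Npm3 (0.97), and for Lgals3 C3 (0.93), Rab3ip (0.93) and Tmem171 (0.93). S100a6 was followed by G3bp1 (0.96), Gpx1 (0.96) and Gem (0.96), and Anxa2 by Pcmt1 (0.96), Rbx1 (0.96) and Rab14 (0.96).

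Outside the 4 glomerular classes, levels were described without a test. Smooth muscle and renin cells (36 to 75 a library) held 886.3 and 747.8 CPM of Lgals1 in young and 1573 and 1428 in aged libraries. S100a6 there was 398.1 and 478.6 against 1214 and 1368, and S100a11 455.0 and 559.8 against 887.8 and 861.8. The groups do not overlap in any of these 3 genes, nor in any of the 8 members with enough counts there, all higher in aged. Beside them, the groups of 43.8% of 3513 genes do not overlap in either direction, with 667 genes higher in aged. S100a4 in the same cells was 9.48 and 98.3 against 216.2 and 421.0, and its young libraries differed by more than their counting intervals. Monocytes and dendritic cells were the richest in S100a4, at 1965 to 3322 in all 4 libraries with groups that overlap. In T and NK cells S100a6 was 639.1 and 211.5 against 1152 and 2074 and Lgals3 32.0 and 48.1 against 248.9 and 629.8. In T and NK cells the groups do not overlap for 4 of 8 members, all 4 higher in aged. Beside them stand 40.7% of 1689 genes in either direction, with 379 genes higher in aged. Lgals1 in those cells overlapped, at 1534 and 519.2 against 803.7 and 1530. Macrophages could be described in aged libraries alone, with 5076 and 3881 of Lgals3 and 1083 and 951.6 of Anxa5.

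**Figure D5:**
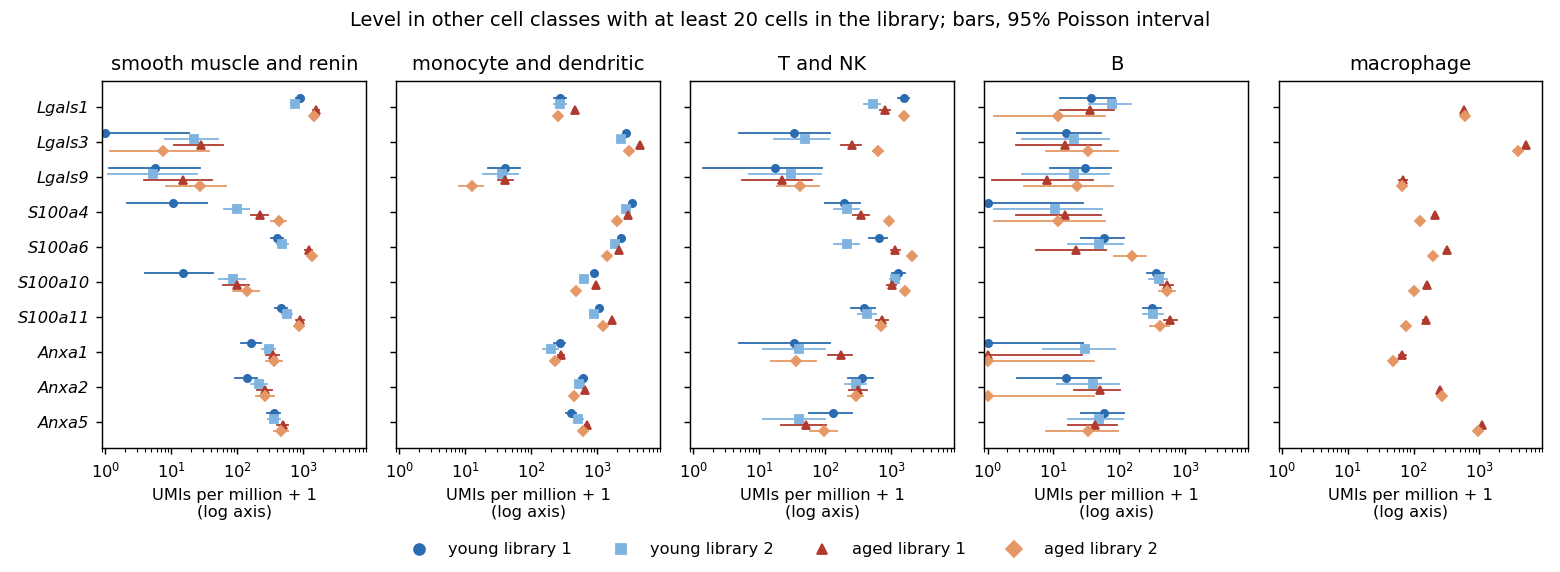
CPM plus 1 (log axis, with exact 95% Poisson intervals that cover counting error only) of the 10 genes in 5 other classes, for libraries with at least 20 cells of the class. Lgals1 and S100a6 of smooth muscle and renin cells lie higher in both aged libraries, at 1428 to 1573 and 1214 to 1368, and the Lgals3 of macrophages lies between 3881 and 5076.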

How the data were processed

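Single cells of bead-isolated glomeruli were profiled in 4 libraries with the 10x Genomics 3' kit v3.1, per the labels' protocols. The deposited matrices hold UMI counts per gene and barcode, not normalized. Cell Ranger made them, version 6.0.1 per the file headers and the submitters' processing notes and 3.1.0 per the labels' protocols, against GRCm38. The smallest deposited barcode total was 500 UMIs. The processing notes also name Partek, whose role is not given in the sources used here.

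Barcodes with at least 500 genes and at most 20% mitochondrial UMIs were kept (29876 of 33323). Scrublet's own threshold marked 134 of them (0.449%) and had not worked, so the highest scores were removed at 0.8% for each 1000 barcodes, 1876 in all. Cells were clustered with scanpy 1.11.5 and leidenalg 0.10.2 on 2000 variable genes without family genes, 30 principal components and 15 neighbours. Clusters were named from marker genes, with naming thresholds chosen once the values had been seen. Clusters, and single cells, with markers of an unrelated class were left out. UMIs were summed per class and library and tested with edgeR 4.0.16 (R 4.3.3; filterByExpr, TMM, quasi-likelihood), age alone as the term; class comparisons used all 16 sums with library as a block. Only the 4 glomerular classes were tested, each with at least 20 cells in every library. The code was tested on simulated data.

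The members and lists were chosen with earlier results of these data known. Named are the 10 members, S100a8 and S100a9, family and partner genes that passed, and the 3 genes most like Lgals1, Lgals3, S100a6 and Anxa2. Of 52636 gene IDs 99.6% were found in GENCODE vM21, and 8 of 10 members in the RefSeq promoter table. With 2 libraries against 2, an exact permutation test of a single value cannot go below p = 0.333, so none was used. Intervals cover counting error only. Alternatives were other size factors, DESeq2 1.42.0, no filter on low counts, each library left out, a replicate block, doublets or mixed clusters kept, family genes kept in clustering, cells with leukocyte markers left out and a leukocyte profile subtracted.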

Additional observations from a re-analysis of the deposited data

Results flagged for a closer look

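Of the 60 tests of whether a member's difference with age differed between a pair of glomerular classes, 16 passed over all genes (edgeR, adjusted p under 0.05). Values are the log2 difference with age in the first class minus that in the second. Anxa1 stood at 1.24 for podocytes minus mesangial cells, at 0.77 for endothelial minus mesangial cells and at -1.28 for mesangial minus parietal epithelial cells. S100a6 stood at 1.21 for podocytes minus mesangial cells, 0.85 for endothelial minus mesangial cells, -1.62 for endothelial minus parietal epithelial cells and -2.47 for mesangial minus parietal epithelial cells. Lgals1 gave -1.54 for podocytes minus mesangial cells, -1.12 for podocytes minus parietal epithelial cells and -1.05 for endothelial minus mesangial cells.

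S100a10 differed from parietal epithelial cells by -1.06 in podocytes, -0.98 in endothelial cells and -0.91 in mesangial cells. Anxa2, its binding partner, differed from them by -1.50, -1.82 and -1.57 in the same order. These differences reuse the values that chose the members.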

How the results depend on the processing

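Of the alternatives for members, and for other family and partner genes that passed, 502 kept direction and side of the threshold, 62 fell below it, 16 passed newly and 23 changed sign. The cause was not tested for any of them, and fits that left a library out also held fewer libraries. The count of members that passed (3 in podocytes, endothelial and mesangial cells, 5 in parietal epithelial cells) ranged with a library left out over 2 to 3, 0 to 3, 0 to 6 and 0 to 6 in that order. For the other family genes it ranged over 0 to 3, 0 to 1, 0 to 7 and 0 to 0, for the differences between classes over 6 to 20 and for members with a leading class over 7 to 8. Leaving an arm with 1 library assumes that it varies like the others. The share of all genes that passed moved in those fits too, so these ranges are not read as changes in the members. With DESeq2 1 member passed in podocytes and 1 in endothelial cells, beside 2.50% and 3.77% of all genes. Without a filter on low counts 0 members, and 0 of 23412 genes, passed in endothelial cells (2297 at an unadjusted p under 0.05). In that setting 2, 6 and 1 other family genes passed in podocytes, mesangial and parietal epithelial cells, beside 3.87%, 6.26% and 2.25% of all genes. With doublets kept 1 other family gene passed in endothelial cells, beside 5.87% of all genes.

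With mixed clusters kept, which are mostly cells of young library 2, in podocytes 0 members and 0 other family genes passed, and 9 of 11261 genes in all. The podocyte differences turned to -0.77 (Lgals1), -2.56 (Lgals3), -2.26 (Lgals9), -3.48 (S100a4), -2.20 (S100a6), -0.026 (S100a10) and -0.032 (Anxa5), and the mesangial ones to -0.072 (S100a10) and -0.206 (Anxa3). In parietal epithelial cells 1 other family gene passed, beside 5.10% of all genes. Of the differences between classes 1 passed, and 4 members had a leading class. Podocyte S100a4, which never passed, was also at -0.070 with DESeq2, -0.084 with doublets kept, -0.21 with family genes in the clustering and -0.0044 with the leukocyte profile subtracted.

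With a library left out, signs changed within -0.79 to 1.08 for S100a4 in podocytes, -0.054 to 0.20 for S100a4, -0.11 to 0.28 for Anxa2 and -0.0059 to 0.25 for Anxa5 in endothelial cells, and -0.45 to 0.17 for S100a6, -0.0046 to 0.52 for S100a10 and -0.0090 to 0.63 for Anxa2 in mesangial cells. None of these passed with all libraries.

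Young and aged libraries of one number deviated together with r = 0.04, 0.17, 0.07 and -0.01 over genes in the 4 classes, and nothing in the labels pairs them. With a replicate block 5 members passed in endothelial and 5 in mesangial cells. The share of all genes that passed rose as well, to 11.6% and 14.6%, from 5.99% and 8.04% without the block. Of the other family genes 2, 1 and 1 passed in podocytes, endothelial and parietal epithelial cells, beside 7.96%, 11.6% and 5.05% of all genes. Without young library 2 the young group held 0 UMIs of Lgals3 in mesangial and of Cd44 in parietal epithelial cells, and those values were left out. Parietal epithelial sums held 165260 to 566331 UMIs from 33 to 64 cells a library, and 4498 genes had enough counts there.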

Other observations

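Podocyte Lgals3, S100a4 and Lgals9 were each at or below 5 CPM in all 4 libraries, and S100a4 in podocytes rested on 8 to 15 UMIs a library. T and NK cells (28 to 81 a library) held S100a4 at 191.7 and 211.5 CPM in young and 348.5 and 924.7 in aged libraries. Tubule cells, 9 to 87 a library, were led by Klk1, a tissue kallikrein, and S100g, a vitamin D dependent calcium-binding protein of the distal nephron.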
